A study of Vitis rotundifolia with 18 samples.

Results

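Enzymes that make and use the main acids of grape berries are described here through 6 of 27228 gene identifiers, in berries of the muscadine grape, Vitis rotundifolia. The genes were chosen by enzyme role and not by their values. They are L-idonate dehydrogenase (L-IdnDH, VIT_16s0100g00290), a pair of phosphoenolpyruvate (PEP) carboxylases (PEPC-19s, VIT_19s0014g01390, and PEPC-01s, VIT_01s0011g02740), PEP carboxykinase (PEPCK, VIT_07s0205g00070) and a pair of NADP-malic enzymes (NADP-ME-11s, VIT_11s0016g03210, and NADP-ME-04s, VIT_04s0008g00180). The enzyme names come with the list of genes. The deposited files pair no identifier with a function, and 0 of 27228 identifiers matched a reference table of 27334 Carlos genes. The enzyme roles could therefore not be checked, other genes of acid metabolism could not be named, and the berry label could not be checked against marker genes.

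Grape berries store tartrate and malate as their main acids. Both build up while the berry is green and hard. L-idonate dehydrogenase works on the route from ascorbate to tartrate, and it oxidises L-idonate. PEP carboxylase fixes bicarbonate onto PEP to give oxaloacetate, the precursor of malate. PEP carboxykinase turns oxaloacetate back into PEP, a step towards sugar. NADP-malic enzyme splits malate into pyruvate and carbon dioxide and yields NADPH. During ripening malate is used up, while tartrate is largely kept.

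Berries of 2 cultivars, Noble and Carlos, were sampled at bunch closure (E-L 32 on the scale of grapevine growth stages), at veraison (E-L 35), when ripening begins, and when mature (E-L 38). Each of the 6 groups held 3 libraries. Noble is a dark-skinned cultivar and Carlos a bronze-skinned one, and no treatment is named in the labels. The labels do not say whether replicates are separate vines, so the p-values here reflect a spread among libraries that could be technical. In whole berries, fewer cells of a type and less RNA per cell cannot be told apart.

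Some libraries stood apart or went against their labels. Replicates correlated at Pearson r = 0.920 to 0.994 (log2 CPM across genes), with the lowest values for Carlos E-L 35 replicate 3. Every replicate pair differed by more than sampling noise (lowest chi-square over its degrees of freedom 2.95). Noble E-L 32 replicate 1, Noble E-L 35 replicate 2 and Carlos E-L 35 replicate 3 are called atypical below, after an earlier reading of these data. They were picked from these same data, so calls made without them show dependence on these libraries and are no independent support. Replicate 3 of each E-L 38 group also stood apart, with a chi-square over its degrees of freedom of 90.5 and 82.0 against its replicates in Carlos and 37.2 and 42.6 in Noble, beside 22.02 and 25.2 for Noble E-L 32 replicate 1. Both are the highest libraries of their groups for NADP-ME-04s. Of 1384 genes that differed between cultivars at both E-L 32 and E-L 35, 75.1% differed in the same direction. Of 1672 genes that differed at both E-L 32 and E-L 38, 24.3% did, and 75.7% had the opposite direction. A cultivar name at E-L 38 therefore means the label only. Averages over both labels do not depend on it.

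All 6 genes passed the filter on low counts. PEPCK had the fewest reads, with 46 to 537 expected counts per library, and its gene model is only 426 bases long (effective length 127 to 169 bases). The other models were 1785 to 3319 bases long, with at least 520 expected counts in each library. Expected counts were whole numbers except for NADP-ME-04s in 5 libraries. Levels are given as CPM (counts set relative to the TMM-scaled library size), which compare libraries. TPM, which also divides by gene length, is used to compare genes.

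From bunch closure to maturity, averaged over both labels, L-IdnDH and PEPC-01s fell and PEPC-19s, PEPCK, NADP-ME-11s and NADP-ME-04s rose. All 6 genes were called for E-L 38 against E-L 32 (edgeR, adjusted p under 0.05), where 70.5% of all genes tested were called. The 4 higher genes stand beside 34.9% of all genes called higher, and the 2 lower ones beside 35.6% called lower. All 6 were also called for E-L 35 against E-L 32, beside 62.6% of all genes, with 4 higher (30.6% of all genes) and 2 lower (32.1%). For E-L 38 against E-L 35, 5 were called, beside 38.1% of all genes, with 3 higher (16.9%) and 2 lower (21.2%). With shares this high among all genes, the counts say little about the 6 genes as a set. The median log2 fold change of the 6 genes was 1.02 for E-L 38 against E-L 32, beside -0.01 over all genes tested. With 4 genes higher and 2 lower, that median describes no shared direction.

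**Figure D1:**
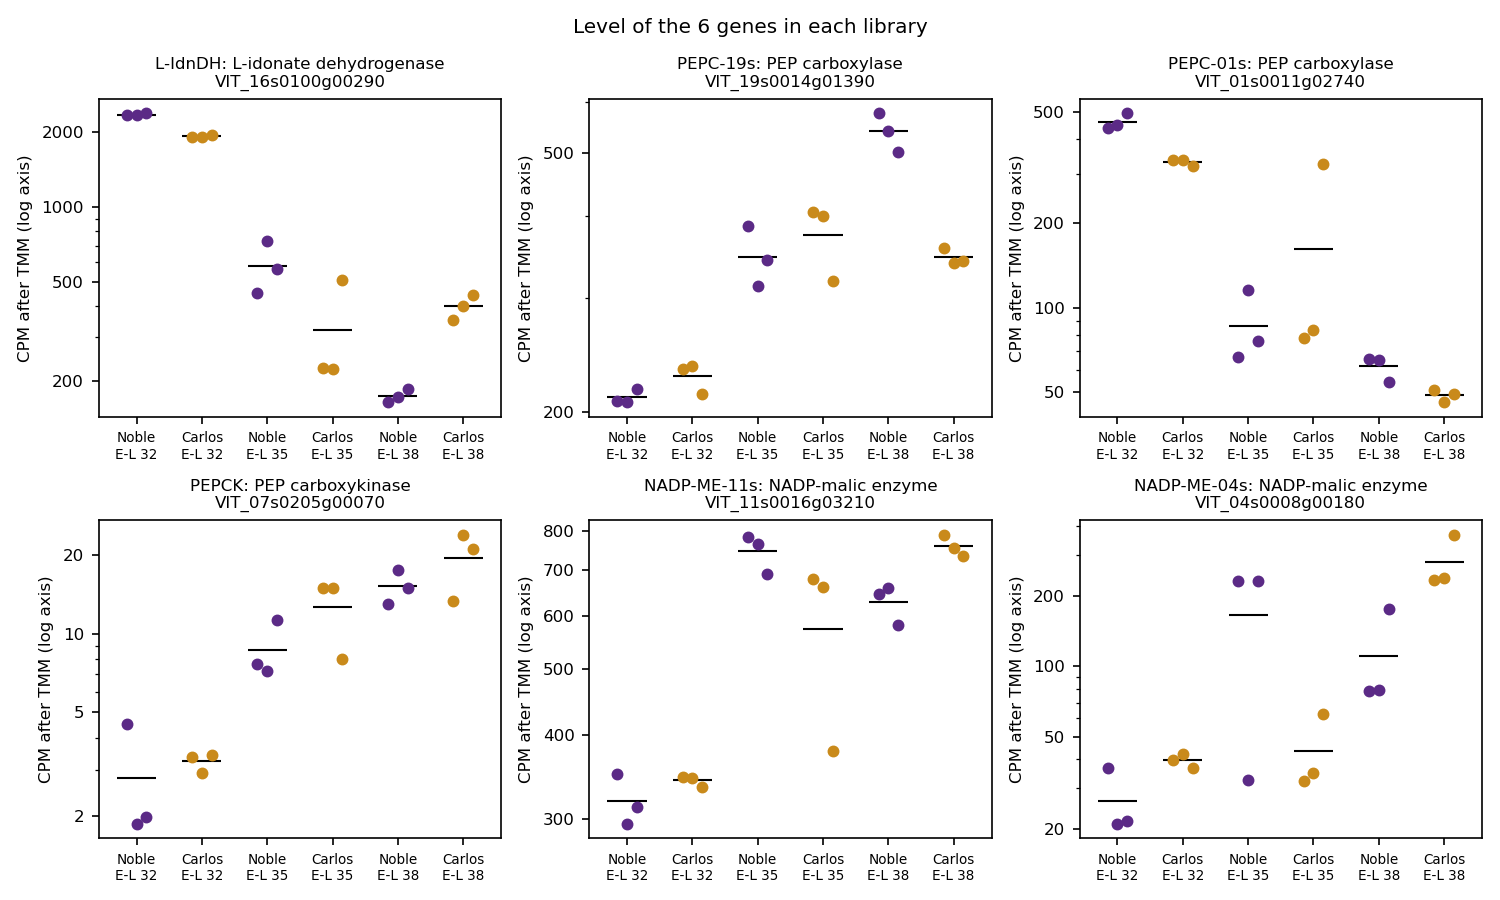
CPM after TMM scaling (log axis) of each of the 6 genes in all 18 libraries, by cultivar label and stage, with Noble in purple and Carlos in ochre. Points are single libraries and bars are group means. L-IdnDH drops from 1913 to 2380 CPM at E-L 32 to 225 to 731 CPM at E-L 35, and PEPCK climbs from 1.87 to 4.52 CPM at E-L 32 to 13.0 to 23.9 CPM at E-L 38.

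L-IdnDH, the enzyme of tartrate synthesis, was the most abundant of the 6 genes at bunch closure (844 to 1187 TPM) and lost most of its transcript by veraison. It stood at 2339, 2334 and 2380 CPM in the Noble libraries of E-L 32 and at 1915, 1913 and 1952 CPM in those of Carlos. At E-L 35 it stood at 455, 731 and 562 CPM in Noble replicates 1 to 3 and at 226, 225 and 513 CPM in Carlos. Every E-L 35 library lay far below every E-L 32 library, and the highest of each cultivar was an atypical one (Noble replicate 2, Carlos replicate 3). The log2 fold change was -2.01 ± 0.26 in Noble (SE, adjusted p = 2.7e-05) and -2.58 ± 0.27 in Carlos (adjusted p = 2.36e-06). In TPM it ranked between 67 and 131 among all identifiers at E-L 32 and between 531 and 2253 at E-L 35.

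At maturity the L-IdnDH level differed between the labels. The libraries labelled Noble stood at 165, 174 and 187 CPM and those labelled Carlos at 353, 403 and 446 CPM, with no overlap. Against E-L 35 the log2 fold change was -1.73 ± 0.26 under the Noble label (adjusted p = 0.000213) and 0.32 ± 0.26 under the Carlos label (adjusted p = 0.338). Without Carlos E-L 35 replicate 3 the latter was 0.81 and was called (adjusted p = 0.00106). Averaged over both labels the late step was -0.71 ± 0.18 (adjusted p = 0.00726), or -0.46 without that library (adjusted p = 0.00304). Over the whole span it was -3.01 ± 0.19 (adjusted p = 5.92e-09), an 8.04-fold fall. The order of group means was Noble E-L 32, Carlos E-L 32, Noble E-L 35, Carlos E-L 38, Carlos E-L 35 and Noble E-L 38, and among neighbours in it Carlos E-L 38 and Carlos E-L 35 overlapped.

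The 2 PEP carboxylase genes, whose enzyme feeds malate synthesis, went in opposite directions. PEPC-01s stood at 436, 449 and 493 CPM in Noble and at 337, 335 and 319.9 CPM in the Carlos berries at E-L 32. At E-L 35 it stood at 66.7, 116 and 76.4 CPM in Noble and at 78.0, 83.0 and 325 CPM in Carlos. Carlos E-L 35 replicate 3 alone was at the bunch closure level, while the other 5 libraries of veraison were well below it. At E-L 38 all 6 libraries lay between 46.0 and 65.9 CPM, below every E-L 35 library. The early log2 fold change was -2.41 ± 0.41 in Noble (SE, adjusted p = 0.000241) and -1.03 ± 0.40 in Carlos (adjusted p = 0.0396). Without Carlos E-L 35 replicate 3 the Carlos value was -2.03 (adjusted p = 2.15e-07). That call was lost without replicate 1 or 2 of Carlos E-L 35 (adjusted p = 0.153 and 0.151) and without each Carlos library of E-L 32 (0.0725 to 0.0810), without Noble E-L 32 replicate 1 (0.0505) and without replicate 2 of either E-L 38 group (both 0.0504). A fit to only the groups compared gave an adjusted p of 0.192, and upper-quartile scaling gave 0.0523.

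PEPC-01s went on falling after veraison, by a log2 fold change of -1.11 ± 0.28 averaged over both labels (adjusted p = 0.00699). The value was -0.61 without Carlos E-L 35 replicate 3 (adjusted p = 0.00084) and -0.47 without the 3 atypical libraries (adjusted p = 0.000186). As labelled, the late step was -1.73 ± 0.40 in Carlos (adjusted p = 0.00371), or -0.74 without that library (adjusted p = 0.00318). A fit to only the groups compared gave -1.78 and lost the call (0.082). Under the Noble label it was -0.48 ± 0.39 (adjusted p = 0.373), and was called without Carlos E-L 35 replicate 3 (-0.48, adjusted p = 0.0209). The whole span gave -2.83 ± 0.30 (adjusted p = 7.19e-07), a 7.10-fold fall.

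PEPC-19s rose at veraison. At E-L 32 it stood at 208, 207 and 217 CPM in Noble and at 233, 236 and 214 CPM in Carlos. At E-L 35 its 6 libraries lay between 312 and 406 CPM, all above those of bunch closure. The early log2 fold change was 0.72 ± 0.11 in both Noble (adjusted p = 8.43e-05) and Carlos (adjusted p = 6.19e-05), about 1.64-fold and 1.65-fold. At E-L 38 it stood at 576, 542 and 503 CPM under the Noble label and at 358, 339 and 342 CPM under the Carlos label. It was higher at E-L 38 than at E-L 35 under the Noble label (log2 fold change 0.64 ± 0.11, adjusted p = 0.00048), and the value under the Carlos label was -0.11 ± 0.11 (adjusted p = 0.415). Averaged over both labels the late step was 0.26 ± 0.08 (adjusted p = 0.0142), a call lost on log2(TPM + 1) (0.122) and in a fit to the groups compared (0.0594).

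The size of the PEPC-19s rise depended on the scaling. On log2(TPM + 1) the early step averaged over both labels was 0.34 (adjusted p = 0.000824), against 0.72 ± 0.08 from counts, but the median of all genes was then -0.31. Relative to these medians the gene rose on both scales. TMM factors lay between 1.08 and 1.20 at E-L 32 and between 0.834 and 1.01 at later stages, and TPM holds no such correction.

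PEPCK, which turns oxaloacetate into PEP, was the lowest of the 6 genes in CPM, which does not correct for its short gene model, and rose at each stage. In deposited TPM it averaged 25.1 at E-L 32, beside NADP-ME-04s at 27.6. At E-L 38 it averaged 110 TPM, above PEPC-01s at 16.6 TPM. These PEPCK values divide by an effective length of 127 to 169 bases on a 426-base model. With annotated length, the log2 ratio of PEPCK to both PEPC genes at Noble E-L 38 was -2.46, against -0.94. The place of PEPCK among the genes in TPM therefore depends on this scaling. PEPCK stood at 4.52, 1.87 and 1.99 CPM in Noble and at 3.37, 2.91 and 3.44 CPM in Carlos at E-L 32. At E-L 35 it stood at 7.64, 7.20 and 11.2 CPM in Noble and at 14.97, 15.01 and 7.97 CPM in Carlos. No E-L 35 library reached down to those of E-L 32, and Carlos replicate 3 was again on the bunch closure side of its group. The log2 fold change was 1.65 ± 0.34 in Noble (SE, adjusted p = 0.00114) and 1.96 ± 0.34 in Carlos (adjusted p = 0.000225). Noble E-L 32 replicate 1 stood above its replicates, and without the 3 atypical libraries the Noble value was 2.29 (adjusted p = 1.25e-05).

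At E-L 38 PEPCK stood at 13.0, 17.6 and 14.96 CPM under the Noble label and at 13.3, 23.9 and 21.1 CPM under the Carlos label, and these ranges overlapped. Averaged over both labels the late step was 0.71 ± 0.23 (adjusted p = 0.0241). That call missed the threshold without Noble E-L 35 replicate 1 (adjusted p = 0.0542), Noble E-L 35 replicate 2 (0.0584), Noble E-L 38 replicate 2 (0.0612), Carlos E-L 38 replicate 2 (0.0635) or Carlos E-L 38 replicate 3 (0.0516). As labelled it was 0.81 ± 0.33 in Noble (adjusted p = 0.0705) and 0.62 ± 0.32 in Carlos (adjusted p = 0.14). The Noble step was called by DESeq2 (adjusted p = 0.0484), by limma-voom (0.0364) and in a fit to only the groups compared (0.0224). It was also called without Noble E-L 32 replicate 1 (0.0323), Carlos E-L 35 replicate 3 (0.0318) or the 3 atypical libraries (0.69, adjusted p = 0.0293). The whole span gave 2.52 ± 0.25 (adjusted p = 3.35e-07), a 5.72-fold rise.

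NADP-ME-11s, the more abundant of the listed malic enzyme genes, rose at veraison, and its late step averaged over both labels did not pass the test. At E-L 32 its Noble libraries held 349.7, 295 and 313 CPM and its Carlos libraries 347, 345 and 334 CPM. At E-L 35 it stood at 786, 766 and 692 CPM in Noble and at 679.9, 662 and 379 CPM in Carlos. The 6 libraries of veraison lay above those of bunch closure, Carlos replicate 3 by little. The early log2 fold change was 1.23 ± 0.17 in Noble (SE, adjusted p = 3.84e-05) and 0.75 ± 0.17 in Carlos (adjusted p = 0.00166). On log2(TPM + 1) the Carlos value was 0.33 and was not called (adjusted p = 0.119), with a median of -0.32 over all genes. At E-L 38 it stood at 647, 659.6 and 581 CPM under the Noble label and at 790.2, 757 and 735 CPM under the Carlos label. The late step averaged over both labels was 0.08 ± 0.12 (adjusted p = 0.624), and -0.01 on log2(TPM + 1). This average combined steps of opposite sign, -0.25 ± 0.17 under the Noble label (adjusted p = 0.267) and 0.41 ± 0.17 under the Carlos label (adjusted p = 0.063). The Carlos step was called by limma-voom (0.038), with a replicate block (0.0397) and without Carlos E-L 35 replicate 1 (0.0309) or 2 (0.0368). The Noble step was called without Carlos E-L 35 replicate 3 (-0.24, adjusted p = 0.0397) and without the 3 atypical libraries (-0.23, adjusted p = 0.0362).

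NADP-ME-04s spread widely within groups. It stood at 36.75, 21.1 and 21.7 CPM in Noble and at 39.9, 42.0 and 36.7 CPM in Carlos at E-L 32. At E-L 35 Noble replicates 1 and 3 stood at 234 and 232 CPM, replicate 2 at 32.6 CPM and the Carlos libraries at 32.1, 35.0 and 62.5 CPM. At veraison the gene was thus high in 2 Noble libraries, within its bunch closure range in 3 libraries and above that range in Carlos replicate 3. At E-L 38 it stood at 78.5, 78.9 and 176 CPM under the Noble label and at 236, 239.8 and 367 CPM under the Carlos label, all above the bunch closure range.

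The early log2 fold change of NADP-ME-04s was 2.65 ± 0.56 in Noble (SE, adjusted p = 0.00132) and 0.13 ± 0.53 in Carlos (adjusted p = 0.857), or -0.29 in Carlos on log2(TPM + 1). The Noble value was 1.85 on log2(TPM + 1) and 3.44 without the 3 atypical libraries, and was called in both. The difference between the cultivars in this step was 2.52 ± 0.76 (adjusted p = 0.0345). It was the only one of the 6 genes called for that difference (17.6% of all genes were), and the call missed the threshold without any single library of E-L 32 other than Noble replicate 1 (adjusted p = 0.0589 to 0.0834), without Noble E-L 35 replicate 1 (0.0921) or 3 (0.083), and without Carlos E-L 35 replicate 1 (0.0731) or 2 (0.069). It was also not called by limma-voom (adjusted p = 0.091), on log2(TPM + 1) (0.0641) or in a fit to the groups compared (0.0613). Without the 3 atypical libraries it was 3.68 (adjusted p = 4.81e-05), and L-IdnDH (0.88, adjusted p = 0.000988) and PEPC-01s (-0.68, adjusted p = 0.00278) were then called too. Calls over all genes for this difference rose as well, from 3108 to 5252, when these libraries were left out. L-IdnDH was also called for it without Carlos E-L 35 replicate 3 (1.08, adjusted p = 0.00162), and PEPC-01s without Carlos E-L 35 replicate 1 (-1.72, adjusted p = 0.0313) or 2 (-1.70, adjusted p = 0.0382). Averaged over both labels the early step was 1.39 ± 0.38 (adjusted p = 0.00548), and on log2(TPM + 1) it was 0.78 and not called (0.0933). In the late step the gene rose under the Carlos label by 2.701 ± 0.56 (adjusted p = 0.00183), or 1.36 and not called with cultivar names exchanged at E-L 38 (0.0825). Under the Noble label the value was -0.58 ± 0.53 (adjusted p = 0.43). Without Noble E-L 35 replicate 2 the latter was -1.06 and was called lower (adjusted p = 0.0439). Averaged over both labels the whole span gave 2.45 ± 0.40 (adjusted p = 5.42e-05), a 5.46-fold rise. The late step averaged over both labels was 1.06 ± 0.38 (adjusted p = 0.0383), and that call missed the threshold without Carlos E-L 32 replicate 1 (0.0508), Carlos E-L 35 replicate 1 (0.0765) or 2 (0.0712), Noble E-L 38 replicate 3 (0.113) or Carlos E-L 38 replicate 3 (0.0876), and in a fit to the groups compared (0.0839).

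**Figure D2:**
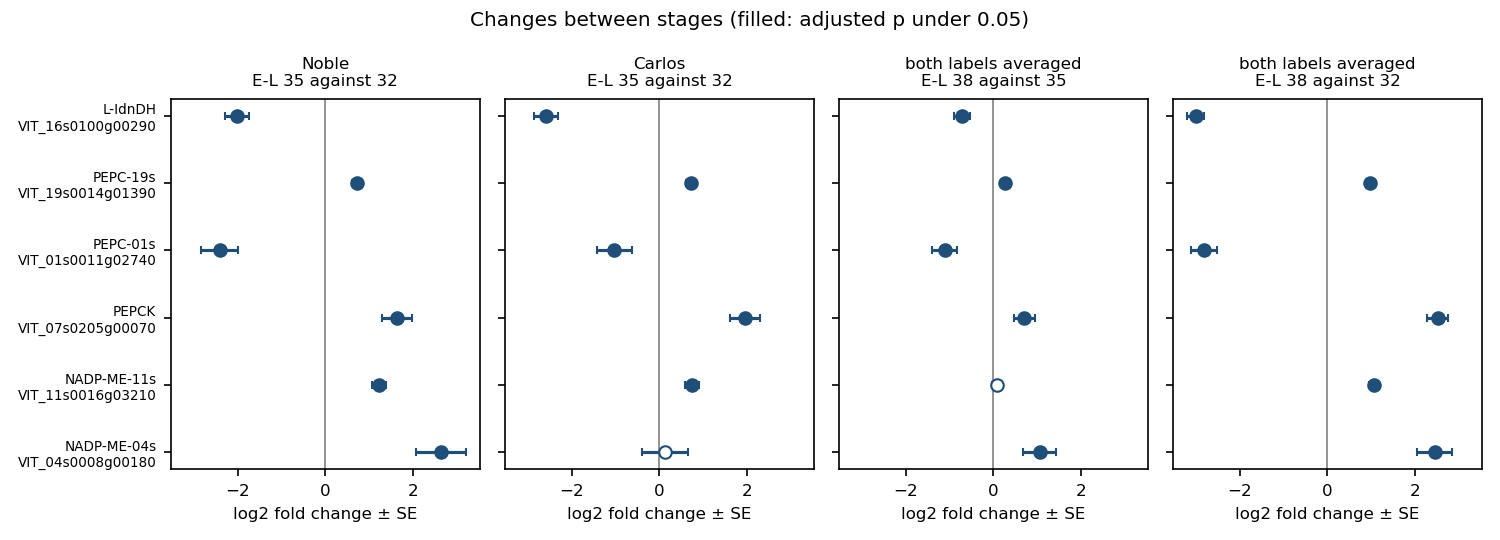
Log2 fold changes with their standard errors (edgeR) of the 6 genes in Noble and in Carlos from E-L 32 to E-L 35, and averaged over both labels from E-L 35 and from E-L 32 to E-L 38. Filled points passed an adjusted p of 0.05. L-IdnDH and PEPC-01s lie left of 0 in each panel, and the open points are NADP-ME-04s in Carlos (0.13) and NADP-ME-11s in the late step (0.08).

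Within a cultivar, all 6 genes were called between E-L 32 and E-L 35 in Noble, beside 50.1% of all genes tested, with 4 higher (23.7% of all genes) and 2 lower (26.4%). In Carlos 5 were called, beside 53.5%, with 3 higher (26.1%) and 2 lower (27.4%). Between E-L 35 and E-L 38, 2 were called under the Noble label (L-IdnDH lower, PEPC-19s higher), against 32.5% of all genes. Under the Carlos label 2 were called as well (PEPC-01s lower, NADP-ME-04s higher), against 40.5%. Without the 3 atypical libraries these late counts were 5 and 4. Calls over all genes then went from 5746 to 7260 under the Noble label and from 7149 to 7507 under the Carlos label. The 5 genes called in Carlos at veraison had the same direction in Noble, where they were called too.

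**Figure D3:**
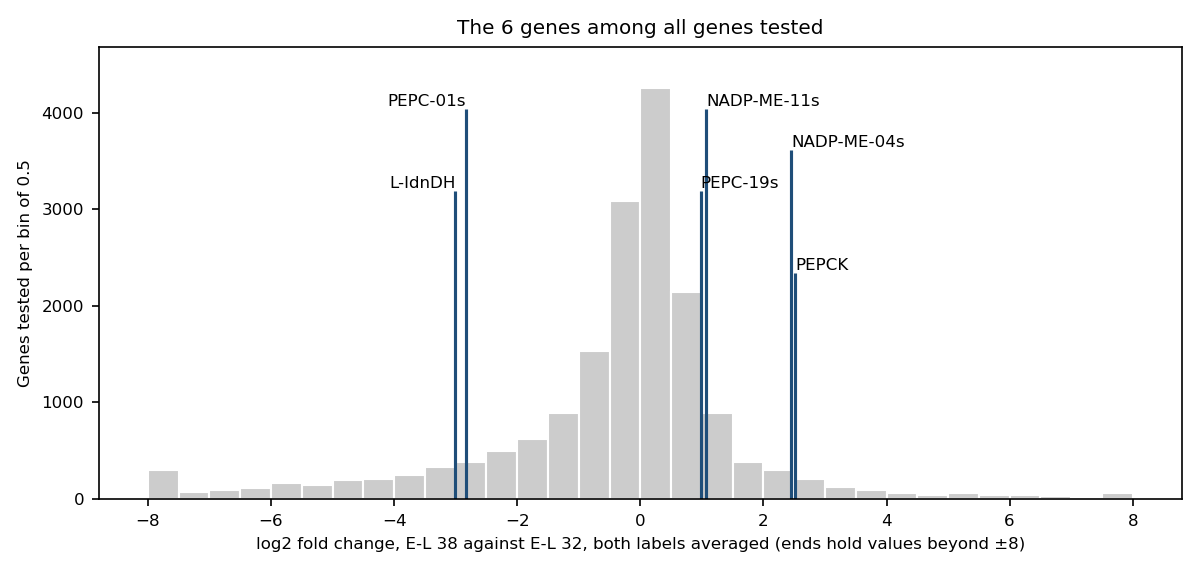
Histogram of the log2 fold changes of all 17657 genes tested for E-L 38 against E-L 32, averaged over both labels, in bins of 0.5, with vertical lines at the 6 genes (line height has no meaning). PEPCK at 2.52 and NADP-ME-04s at 2.45 stand in the right tail, and L-IdnDH at -3.01 and PEPC-01s at -2.83 in the longer left tail.

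Over the whole span 4.53% of all genes tested rose at least as far as PEPCK and 4.73% as far as NADP-ME-04s. A fall at least as deep was found in 10.6% of genes for L-IdnDH and in 11.3% for PEPC-01s. PEPC-19s and NADP-ME-11s, at 0.98 ± 0.08 and 1.07 ± 0.12 (SE), were matched or passed by 13.8% and 12.5% of genes.

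Compared by TPM within each library, the balance of the PEPC pair shifted. PEPC-01s made up 66.6% ± 0.889 (SD, n = 3) of the summed TPM of both PEPC genes in Noble and 57.1% ± 0.644 in Carlos at E-L 32. At E-L 38 it made up 9.47% ± 0.483 and 11.4% ± 0.314 under the Noble and Carlos labels. Within this pair, the leading transcript thus changed from PEPC-01s at bunch closure to PEPC-19s later. Summed over the pair, PEPC stood at 304 ± 22.3 TPM in Noble and 231 ± 13.7 TPM in Carlos at E-L 32, and at 196 ± 11.1 and 129 ± 7.77 TPM at E-L 38. These sums hold no TMM correction, and the all-gene median on log2(TPM + 1) was -0.39 for E-L 38 against E-L 32. The size of a fall in summed PEPC is thus not given by them. In mean CPM, PEPC-01s went from 459 to 61.8 and PEPC-19s from 211 to 540 under the Noble label. Under the Carlos label the means went from 331 to 48.7 and from 227 to 346 CPM. At E-L 35 the PEPC-01s share was 13.6% to 25.3% in Noble and 14.95% to 48.3% in Carlos, the highest being Carlos replicate 3.

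Within the pair of malic enzyme genes listed, NADP-ME-11s was the more abundant transcript in every library. NADP-ME-04s made up 9.57% ± 2.07 (SD, n = 3) of the summed TPM in Noble and 13.0% ± 0.591 in Carlos at E-L 32. At E-L 38 it made up 32.1% ± 6.22 under the Carlos label and 18.5% ± 8.52 under the Noble label, where replicate 3 held 28.3% and the others 13.6% and 13.4%, beside 12.5% to 13.6% in the Carlos libraries of E-L 32. At E-L 35 the share ran from 5.24% to 30.3% among Noble libraries, a spread that the group mean does not describe.

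Transcripts of the listed NADP-ME and PEPCK genes gained on those of the listed PEPC pair. The log2 ratio of summed NADP-ME to summed PEPC (TPM) was -0.33 ± 0.20 (SD, n = 3) in Noble and 0.08 ± 0.02 in Carlos at E-L 32. It was 1.68 ± 0.19 in Noble and 0.76 ± 0.58 in Carlos at E-L 35, and 0.89 ± 0.16 and 2.04 ± 0.10 under these labels at E-L 38. At maturity the higher ratio thus lay under the Carlos label, and at veraison in Noble. The log2 ratio of PEPCK to summed PEPC went from -3.80 ± 0.68 in Noble and -3.09 ± 0.14 in Carlos at E-L 32 to -0.94 ± 0.20 and -0.14 ± 0.31 at E-L 38. With annotated length in place of effective length these were -5.11, -4.52, -2.46 and -1.53, so the ratio depends on how the short PEPCK gene model is scaled. Ratios are descriptions and were not tested.

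**Figure D4:**
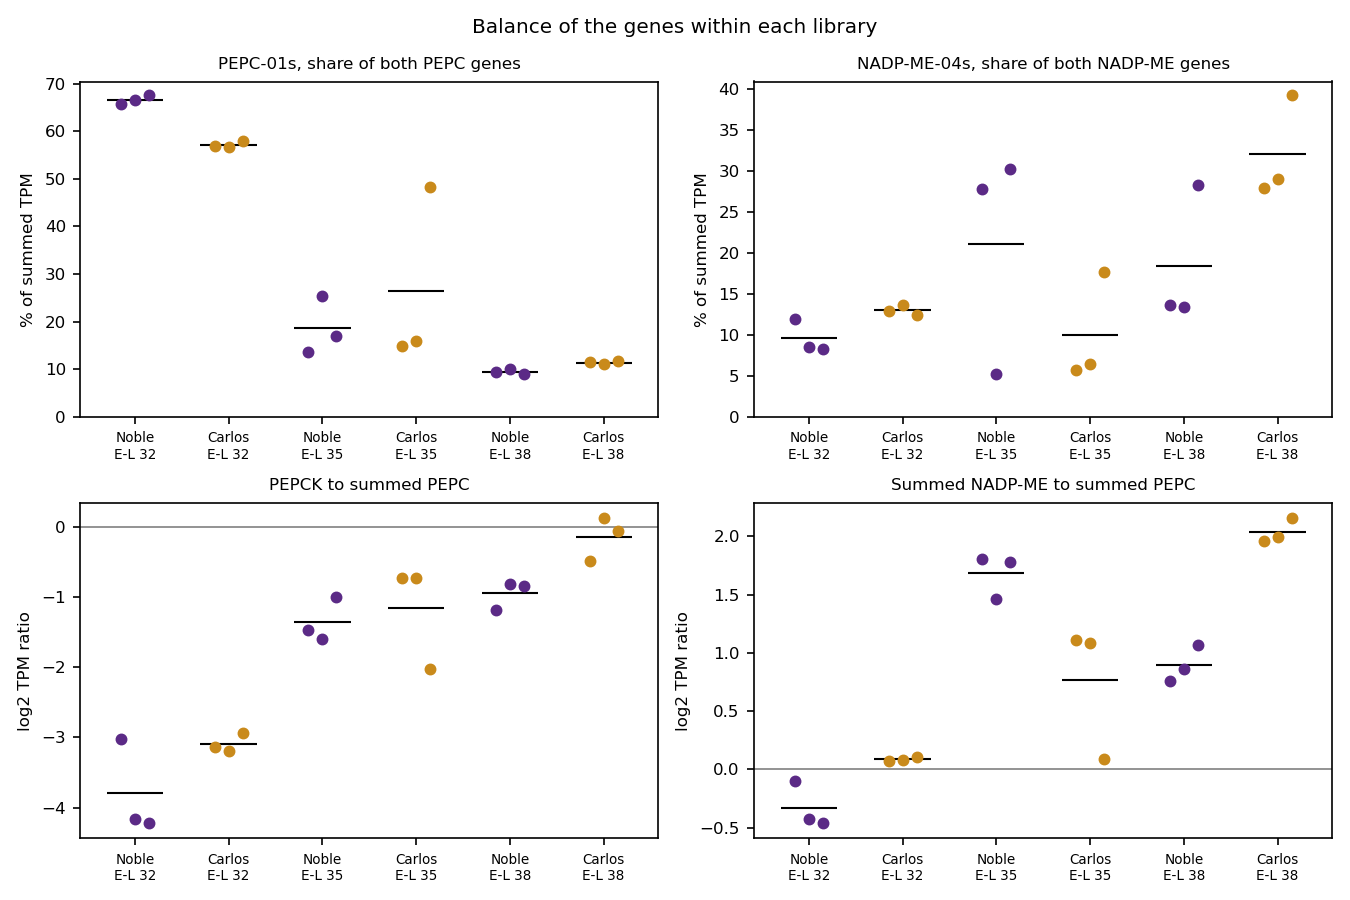
Share of PEPC-01s in the summed TPM of both PEPC genes, share of NADP-ME-04s in that of both NADP-ME genes (both in percent), and log2 TPM ratios of PEPCK and of summed NADP-ME to summed PEPC, for each library. Points are libraries, bars are means of 3, Noble is purple and Carlos ochre. The PEPC-01s share is 56.6% or more at E-L 32 and 11.6% or less at E-L 38, and Carlos E-L 35 replicate 3 stands apart from its replicates in each panel.

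No cultivar difference passed the test at bunch closure. At E-L 32 edgeR called 0 of the 6 genes, against 27.5% of all genes, and 0 had an unadjusted p under 0.05 (DESeq2 and limma-voom also called 0). L-IdnDH averaged 2351 ± 25.4 CPM in the Noble libraries and 1927 ± 22.1 CPM in those of Carlos (SD, n = 3), and PEPC-01s averaged 459 ± 30.2 and 331 ± 9.29 CPM, without overlap in either. Their log2 differences, Noble minus Carlos, were 0.29 ± 0.25 and 0.47 ± 0.39 (SE, adjusted p = 0.441 and 0.406). A fit to these 6 libraries alone called L-IdnDH (0.31, adjusted p = 0.000209), PEPC-01s (0.50, adjusted p = 0.000117) and NADP-ME-04s (-0.56, adjusted p = 0.0345). Without Carlos E-L 35 replicate 3, PEPC-01s alone was called (0.47, adjusted p = 0.0229). Without the 3 atypical libraries, L-IdnDH (0.29, adjusted p = 0.0461), PEPC-01s (0.51, adjusted p = 0.000883), PEPCK (-0.75, adjusted p = 0.0456) and NADP-ME-04s (-0.88, adjusted p = 0.0366) were called. Calls over all genes then rose from 4852 to 6599.

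At veraison 2 genes were higher in Noble than in Carlos, beside 9.75% of all genes called higher and 19.0% called in either direction. L-IdnDH differed by 0.86 ± 0.26 (SE, adjusted p = 0.0295) and NADP-ME-04s by 1.94 ± 0.55 (adjusted p = 0.0229). The ranges of both groups overlapped for both genes, and neither was called in a fit to these 6 libraries alone (adjusted p = 0.271 and 0.203). Both calls were lost without Noble E-L 35 replicate 3 (adjusted p = 0.063 and 0.0879), without Carlos E-L 35 replicate 1 (0.112 and 0.079) and without Carlos E-L 35 replicate 2 (0.107 and 0.0737). The L-IdnDH call was also lost without Noble E-L 35 replicate 2 (0.0927), and that of NADP-ME-04s without Noble E-L 35 replicate 1 (0.0975). Limma-voom did not call NADP-ME-04s (1.55, adjusted p = 0.082), and without the 3 atypical libraries its difference was 2.79 (adjusted p = 4.29e-05). Without Carlos E-L 35 replicate 3 the L-IdnDH difference was 1.36 (adjusted p = 2.87e-05).

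At maturity 2 genes differed between the labels, against 23.4% of all genes called. L-IdnDH was lower under the Noble label by a log2 difference of -1.19 ± 0.26 (SE, adjusted p = 0.00388), and PEPC-19s was higher by 0.64 ± 0.11 (adjusted p = 0.000655). NADP-ME-04s stood at 111 ± 56.4 CPM under the Noble label and 281 ± 74.7 CPM under the Carlos label (SD, n = 3), without overlap, with a log2 difference of -1.34 ± 0.54 (adjusted p = 0.0866). Without the 3 atypical libraries it was called (-1.33, adjusted p = 0.0013), as were PEPC-01s (0.34, adjusted p = 0.00754) and NADP-ME-11s (-0.27, adjusted p = 0.00997). Calls over all genes then rose from 4130 to 6671. NADP-ME-04s was also called by DESeq2 (-1.31, adjusted p = 0.0444), in a fit to only the groups compared (-1.32, 0.0273) and without Noble E-L 35 replicate 2 (-1.33, 0.0105). L-IdnDH and NADP-ME-04s were thus higher in Noble at veraison and higher under the Carlos label at maturity. For NADP-ME-04s the latter did not pass the threshold in the edgeR fit to all libraries. The veraison calls of both genes were lost in several settings.

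**Figure D5:**
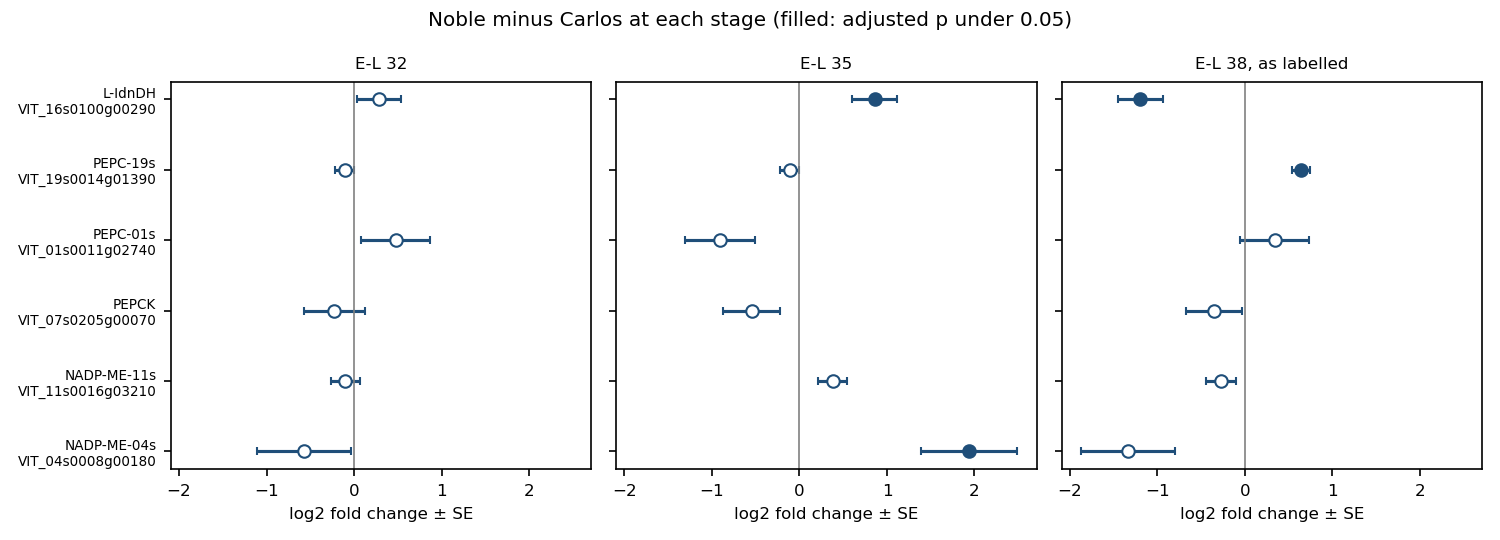
Log2 differences, Noble minus Carlos, with standard errors (edgeR) of the 6 genes at each stage, named as labelled. Filled points passed an adjusted p of 0.05. L-IdnDH lies at 0.86 at E-L 35 and at -1.19 at E-L 38, and NADP-ME-04s at 1.94 and -1.34.

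The step from veraison to maturity differed between the labels in 4 of the 6 genes, against 33.4% of all genes called. The difference, Noble minus Carlos, was -2.05 ± 0.36 for L-IdnDH (SE, adjusted p = 0.000564), 0.75 ± 0.15 for PEPC-19s (adjusted p = 0.00152), -0.66 ± 0.23 for NADP-ME-11s (adjusted p = 0.0432) and -3.28 ± 0.77 for NADP-ME-04s (adjusted p = 0.00436), the last being -4.13 without the 3 atypical libraries (adjusted p = 4.76e-06). The NADP-ME-11s call was lost without any single library outside Carlos E-L 35 (adjusted p = 0.0501 to 0.106), and the value was -0.41 without Carlos E-L 35 replicate 3 (adjusted p = 0.025). These values rest on which mature libraries carry which name. With the names exchanged at E-L 38, a setting chosen after the data were examined, 0 of the 6 genes were called by edgeR for this difference (1 at an unadjusted p under 0.05). Calls over all genes then fell from 5890 to 485, so the count of 0 says little about the 6 genes. A difference between cultivars and a mix-up of names cannot be told apart here.

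Across the 18 libraries L-IdnDH correlated with PEPC-01s at Pearson r = 0.87 and with PEPC-19s at -0.97, and PEPC-01s with NADP-ME-11s at -0.95 (log2 CPM, n = 18). The weakest correlation in size was that of PEPC-19s with NADP-ME-04s, at 0.50. These are descriptions, since libraries share their stage and the points are not independent.

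The genes most like each of the 6, among 10302 candidates averaging 10 CPM or more, are named by identifier only. VIT_01s0026g00260 (r = 0.988) and VIT_16s0013g01510 (r = 0.984) were closest to L-IdnDH over the 18 libraries. VIT_18s0001g11080 (r = 0.968) and VIT_19s0014g02840 (r = 0.961) were closest to PEPC-19s. VIT_12s0059g01820 (r = 0.985) and VIT_06s0061g00620 (r = 0.983) were closest to PEPC-01s. VIT_01s0010g03750 (r = 0.975) and VIT_06s0009g03170 (r = 0.974) were closest to PEPCK. VIT_01s0010g00060 (r = 0.993) and VIT_04s0069g01180 (r = 0.984) were closest to NADP-ME-11s, and VIT_16s0022g00450 (r = 0.959) and VIT_18s0001g06270 (r = 0.953) to NADP-ME-04s. Over the 6 group means these correlations lay between 0.964 and 0.997, and without the 3 atypical libraries between 0.959 and 0.993.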

How the data were processed

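Total RNA from berries was made into libraries with a directional kit, per the labels' protocols. STAR 2.7.6a and RSEM 1.3.3 were used, per the submitters' processing notes, while genome build, annotation and strand use are not given in the sources used. Of the 27228 identifiers, 26588 begin with VIT_, and 0 matched the table of Carlos genes. Whether muscadine reads map equally well to these gene models across genes and cultivars was not tested. The authors deposited expected counts, which are estimates that divide a read among the genes it matches. The authors' TPM values divide counts by effective length and set every library to one sum. FPKM values, also deposited, were left out.

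Expected counts were rounded, and filterByExpr in edgeR 4.0.16 (R 4.3.3) left 17657 of 27228 identifiers. One quasi-likelihood model with 1 coefficient per group and TMM scaling was fitted to all 18 libraries. Benjamini-Hochberg adjustment ran over all genes tested, and calls needed an adjusted p under 0.05. The SE is the absolute log2 fold change over the root of F. Averages over both labels weight the cultivars equally. The differences between labels in a stage step are interaction terms.

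Alternatives were DESeq2 1.42.0, limma-voom and log2(TPM + 1) in limma 3.58.1, upper-quartile scaling, other filters (no filter, or at least 5 CPM in 3 libraries), a replicate block, smaller fits and libraries left out. The exchange of cultivar names at E-L 38 and the use of annotated length were added after the data were examined. All 6 genes were named in every comparison. For each, the 2 genes of at least 10 mean CPM with the highest correlation of log2 CPM (prior count 2) were also named. The genes, the comparisons and the 3 libraries called atypical were chosen with earlier results of these data known. Totals of 18919160 to 30843026 expected counts per library set the precision, and values over 3 libraries carry the spread between them.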

Additional observations from a re-analysis of the deposited data

Results flagged for a closer look

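Stage steps that differed between the cultivar labels by the interaction term of edgeR are listed here. Between E-L 32 and E-L 35, NADP-ME-04s (VIT_04s0008g00180) rose more in Noble than in Carlos, by a log2 difference of 2.52. That call was lost in 12 of 27 alternative settings. Between E-L 35 and E-L 38, named as labelled, the difference of Noble minus Carlos was -2.05 for L-IdnDH (VIT_16s0100g00290). It was 0.75 for PEPC-19s (VIT_19s0014g01390), -0.66 for NADP-ME-11s (VIT_11s0016g03210) and -3.28 for NADP-ME-04s (VIT_04s0008g00180). The NADP-ME-11s call was lost in 18 of 28 alternative settings. Cultivar labels at E-L 38 go against the differences seen at E-L 32, and their part in these 4 values was not tested beyond the exchange of names given among the alternatives.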

How the results depend on the processing

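For E-L 35 against E-L 32 and E-L 38 against E-L 32 averaged over both labels, and for the early step in each cultivar, the number of the 6 genes called stayed within 1.5 times under the alternatives run. Other counts moved. Without the 3 atypical libraries 5 genes were called in the late step under the Noble label and 4 under the Carlos label (2 each with all libraries), 4 between cultivars at E-L 32 (0), 5 at E-L 38 (2) and 3 for the early difference between labels (1). Calls over all genes rose as well, to 7260 (5746), 7507 (7149), 6599 (4852), 6671 (4130) and 5252 (3108) in the same order. Where counts over all genes moved by over 1.5 times in other settings, they are given below. Fits to only the groups compared called 1 for the late step under the Carlos label, 3 for the late step averaged (5), 3 at E-L 32, 0 at E-L 35 (2), 4 at E-L 38 and 0 for the early difference. Limma-voom called 1 at E-L 35 and 0 for the early difference, and log2(TPM + 1) also 0 for the latter. Leaving out single libraries gave 2 to 5 for the late step under the Noble label (5 without Carlos E-L 35 replicate 3), 3 to 5 for the late step averaged (3 without Carlos E-L 38 replicate 3), 0 to 2 for the early difference, and between cultivars 0 to 1 for bunch closure and 0 to 2 for veraison.

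With cultivar names exchanged at E-L 38, the late step of Noble called 1 gene. The late difference called 0, beside 485 over all genes (5890 as labelled). PEPC-19s (VIT_19s0014g01390) then changed sign to -0.00261 in the late step of Noble and to -0.53 in the difference, neither called. In the late step of Carlos it changed sign to 0.53 and was called by edgeR (adjusted p = 0.00397). L-IdnDH (VIT_16s0100g00290) changed to -0.88 in the late step of Carlos, called by edgeR (adjusted p = 0.0259), and to 0.33 in the difference, not called. Its late step in Noble fell in size from -1.73 to -0.54, not called. NADP-ME-04s (VIT_04s0008g00180) went from 2.701 to 1.36 in Carlos and from -3.28 to -0.61 in the difference, neither called, and from -0.58 to 0.76 in Noble, called in neither setting. NADP-ME-11s (VIT_11s0016g03210) went from -0.66 to -0.11 in the difference, not called. PEPCK (VIT_07s0205g00070) went from 0.81 to 1.16 in Noble and was then called. Between labels at E-L 38 the exchange only turns every sign. The cause of these changes was not tested beyond their construction.

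Counts over all genes moved by over 1.5 times as well: at E-L 35 from 3356 to 449 (groups compared only), 1869 and 2166 (without Noble E-L 35 replicate 1 or 3) and 5841 (without the atypical libraries), and at E-L 32 from 4852 to 9298 (groups compared only). They were 2746 for the late step under the Carlos label (7149), 6671 between labels at E-L 38 (4130), 5252 for the early difference without the atypical libraries and 4770 without Carlos E-L 35 replicate 3 (3108), and with names exchanged 3787 for the late step of Carlos and 485 for the late difference (5890). On log2(TPM + 1) the share of called genes that were higher fell from 44.3% to 49.5% to 20.5% to 31.3% in the stage comparisons other than the late step under the Carlos label, from 50.5% to 36.4% for the late difference, and between cultivars it was 65.2% for E-L 32 (50.4%) and 74.6% for E-L 35 (51.3%). With upper-quartile scaling it was 60.5% at E-L 32.

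Same-numbered libraries of different groups did not pair: their deviations correlated at -0.23 to 0.31, and 5 of 18 libraries correlated best with their own number. A replicate block called 3 genes in the late step under the Carlos label (2 without it). Depth limits PEPCK most, at 46 expected counts in its lowest library.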
